A study of Mus musculus with 6 samples.

Results

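Lysosomal hydrolases and membrane proteins are described here as a set of 46 genes, chosen by name. They were taken from the 22377 genes in a count table from a study of mouse tumor macrophages. The set holds the proteases, glycosidases, sulfatases and lipid enzymes of the lysosome, proteins of its membrane, and the MiT/TFE transcription factors. All 46 genes were in the table, and all 46 were among the 13884 genes that passed the filter on low counts.

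The study asked how Npm1, which encodes the nucleolar protein nucleophosmin, acts in tumor-associated macrophages (TAMs). Its text describes CD45+ CD11b+ F4/80+ macrophages sorted from subcutaneous tumors of LLC, the mouse Lewis lung carcinoma line, grown in Npm1+/+ and Npm1+/- mice. The mice were male and female and 6 to 8 weeks old when the tumor cells were implanted. The changed Npm1 allele of the Npm1+/- mice is not limited to macrophages. The sample labels give 3 libraries as wt and 3 as ko or knockdown, with no genotype, and name tumor tissue, TRIzol and a small RNA protocol where the methods name sorted cells, a column kit and a low-input cDNA kit. A figure legend of the study also names fewer mice in each group than there are libraries here, so whether each library is a separate mouse is not known. These descriptions were not reconciled, and the groups are called wt and labelled knockdown below.

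The total count lay between 36550775 and 38147320 per library, so that 3 counts, up to which a count of 0 is possible, corresponded to between 0.0716 and 0.0846 CPM. CPM here are counts relative to library size after scaling by the TMM method. This limit covers counting error only. Npm1 itself was at 142, 380 and 381 CPM in wt replicates 1, 2 and 3 and at 441, 499 and 343 CPM in the libraries labelled knockdown. The targeted gene was therefore not lower in the libraries labelled knockdown, and its groups overlapped, with a log2 fold change of 0.51 (SE 0.36, adjusted p = 0.436, quasi-likelihood test of edgeR, Benjamini-Hochberg adjustment). Every fold change below is libraries labelled knockdown over wt, and no direction can be tied to a loss of Npm1. In a principal component analysis of all genes, wt replicate 1 stood apart at -108 on the first component, with the other libraries between -4.54 and 52.

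The markers of the sort were high in every library. Ptprc, which encodes CD45, was at 957, 972 and 1393 CPM in wt and at 1001, 928 and 1189 CPM in the libraries labelled knockdown. Itgam, which encodes CD11b, was at 2877, 2975 and 2708 CPM in wt and at 1945, 1492 and 2660 CPM in the libraries labelled knockdown. Adgre1, which encodes F4/80, was at 302, 201 and 222 CPM in wt and at 165, 127 and 224 CPM in the libraries labelled knockdown. Of these, the groups of Itgam did not overlap and those of Ptprc and Adgre1 did.

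Lysosomes are the acidic organelles in which cells break down protein, glycan and lipid delivered by endocytosis, phagocytosis and autophagy. Macrophages, which engulf debris and dying cells, carry many of them, and cathepsins, CD68 and LAMP proteins are widely used to stain these cells. Soluble hydrolases are tagged with mannose 6-phosphate in the Golgi and sorted to the lysosome, where a proton pump, the V-ATPase, keeps the lumen acidic. Transcription factors of the MiT/TFE family (TFEB, TFE3 and MITF) bind E-boxes within the so-called CLEAR element of many lysosomal promoters, and the mTORC1 kinase and the folliculin complex keep these factors in the cytoplasm when nutrients are plentiful.

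The promoters of the members were therefore searched for the letters of that site. In the RefSeq promoter windows of build GRCm38.p6, from 250 bases before to 50 bases after each gene's start, 42 of the 46 members had an entry, while Ctsb, Ctsh, Asah1 and Npc1 did not. The E-box CACGTG, which reads alike on both strands, was found in 13 of the 42 (31%), against 8.09% of 27025 genes and 11.4% of the 10999 tested genes with an entry. The longer core TCACGTGA, which contains the E-box and also reads alike on both strands, was found in 4 of the 42 (9.52%), against 1.12% and 2.11% of the same genes. These 4 were Ctsa, Ctsd, Gla and Mcoln1. Stretches of at most 30 bases are shown for some of the 13 members with the E-box, from the strand of the gene, with the E-box in capitals. Not shown are those of Ctsl, Gla, Gaa, Glb1 and Naglu, whose log2 fold changes were 0.068, 0.089, -0.037, -0.11 and -0.38.
Lamp1: actggCACGTGaccacatCACGTGcggaac
Lgmn: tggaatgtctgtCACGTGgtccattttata
Ctsd: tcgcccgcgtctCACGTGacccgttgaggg
Ctsa: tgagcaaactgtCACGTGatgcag
Mcoln1: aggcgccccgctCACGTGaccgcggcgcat
Sgsh: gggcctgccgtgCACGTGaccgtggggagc
Arsa: tcaactcagtgtCACGTGttgtctgctc
Ctsf: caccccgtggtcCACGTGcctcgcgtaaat

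The Lamp1 stretch lies at chr8:13159128-13159157 on the plus strand and holds 2 of the 4 E-boxes before the Lamp1 start, which begin 28 and 15 bases before it. The Ctsf stretch (chr19:4855074-4855103, plus strand) lies, like that of Lamp1, outside annotated exons, and the Lgmn stretch (chr12:102439124-102439153, minus strand) overlaps no exon either. Those of Ctsd (chr7:142387908-142387937, minus strand), Ctsa (chr2:164833749-164833772, plus strand), Mcoln1 (chr8:3500462-3500491, plus strand) and Sgsh (chr11:119355522-119355551, minus strand) overlap an annotated exon of a longer or alternative transcript of the same gene. The Arsa stretch (chr15:89477425-89477452, minus strand) shares only its last base with an annotated Arsa exon, and its E-box lies before that exon. A match of these letters is a description of the sequence and not a measured binding site.

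To place the members among themselves, their levels were compared per length, in the deposited FPKM values. Psap, which encodes prosaposin, the precursor of the saposins that help lysosomal enzymes reach sphingolipids, was highest, at 2288 ± 489 FPKM in wt and 1643 ± 276 FPKM in the libraries labelled knockdown (SD, n = 3 each), and ranked 17 among all genes. Ctss, the cysteine protease cathepsin S that trims the invariant chain of MHC class II, followed at 987 ± 123 and 741 ± 154 FPKM. Ctsd, the aspartic protease cathepsin D, was at 701 ± 61.7 and 594 ± 52.5 FPKM, and Laptm5, a lysosomal membrane protein of blood cells, was at 670 ± 135 and 503 ± 50.6 FPKM. Psap exceeded Ctss beyond the range of the 6 libraries, whereas the ranges of Ctss, Ctsd and Laptm5 overlapped from each to the next.

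In all, 16 members had a mean above 100 FPKM, 18 lay between 10 and 100 FPKM and 12 lay below 10 FPKM. Of the 45 neighbors in the order of levels, 4 pairs were separated beyond the range of the 6 libraries, namely Psap from Ctss, Gla from Fuca1, Glb1 from Manba and Sgsh from Ctsf. At the low end were the transcription factor genes Tfeb (4.05 FPKM in wt and 2.74 FPKM in the libraries labelled knockdown) and Mitf (2.74 and 3.12 FPKM). The cysteine protease gene Ctsf was the lowest, at 0.328 ± 0.106 and 0.214 ± 0.0169 FPKM.

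**Figure D1:**
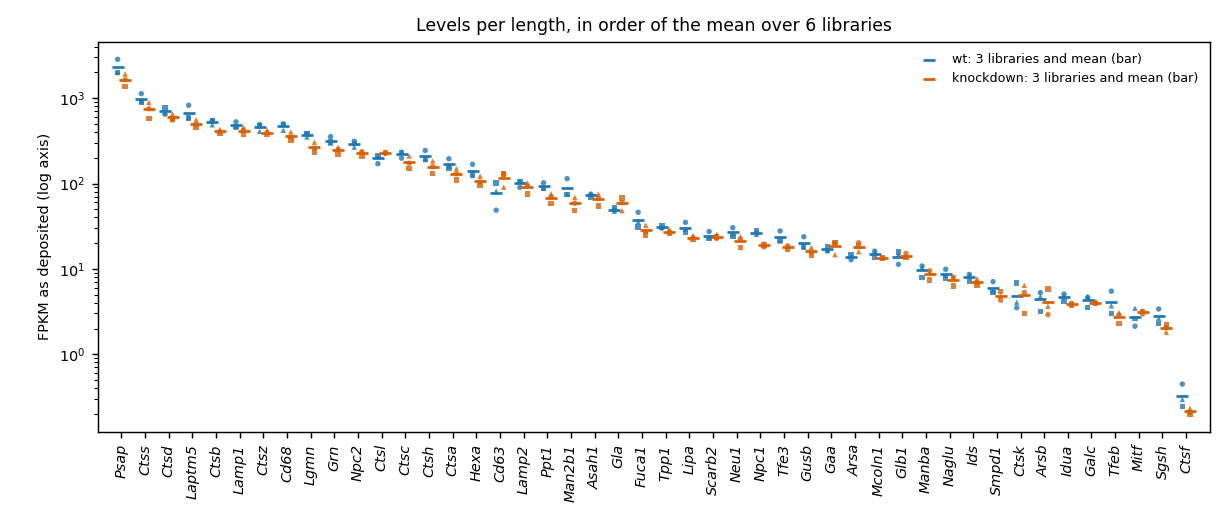
Deposited FPKM of each of the 46 members (vertical log axis) in order of the mean over the 6 libraries, with a point for each library and a bar for the mean of each group, wt in blue and labelled knockdown in orange. Psap lies highest, at 1366 to 2852 FPKM, and Ctsf lies lowest, at 0.2 to 0.447 FPKM.

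Most members were lower in the libraries labelled knockdown, but none passed the test. The estimate was lower for 41 of the 46 members and higher for 5 (Cd63, Arsa, Gla, Ctsl and Mitf), against 47.9% lower among all genes tested. The median log2 fold change of the members was -0.46, with a range from -0.76 to 0.43, and the median over all genes tested was 0.022. In 26 members every library labelled knockdown was below every wt library, where 12.6% of all genes tested showed this, and in 1 member, Arsa, every one was above, where 13.3% did. After Benjamini-Hochberg adjustment, edgeR's quasi-likelihood test called 0 members in a background of 0% of genes called, and the smallest adjusted p of a member was 0.328. At an unadjusted p under 0.05, 24 members were lower and 0 were higher, against 8.31% and 6.9% of all genes tested. DESeq2 run without a filter also called 0 members and 0.263% of the genes for which it gave an adjusted p. DESeq2 run after edgeR's filter was an alternative chosen after seeing the data. It called 1.23% of the genes for which it gave an adjusted p (0.901% lower) and 1 member, Npc1, as lower. Ctsf was given no adjusted p in that run.

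**Figure D2:**
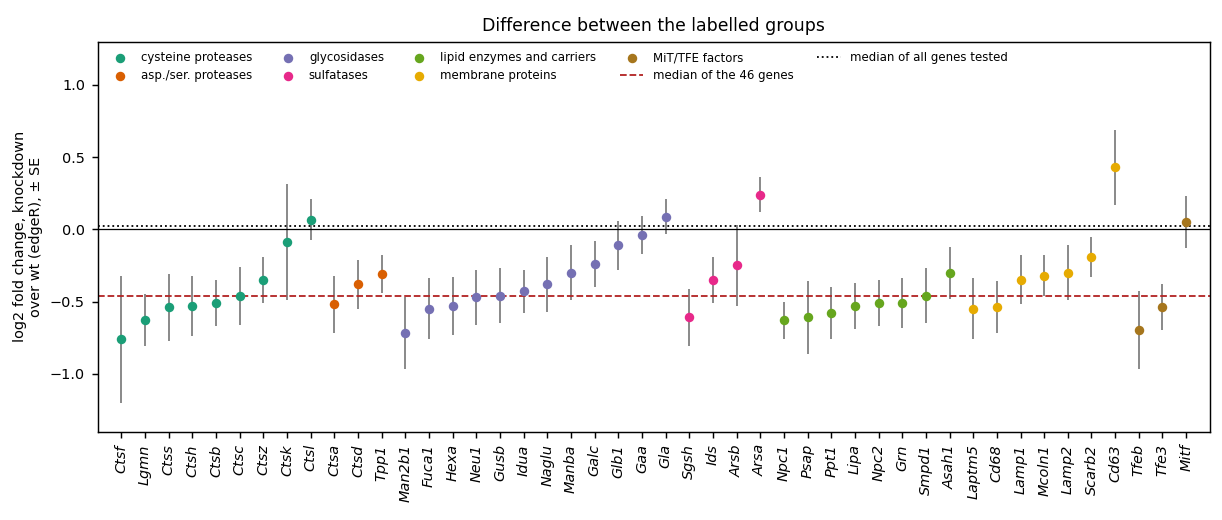
log2 fold change (edgeR, libraries labelled knockdown over wt) of each member as a point with its standard error, colored by role, with a dashed line at the median of the 46 genes, -0.46, and a dotted line at the median of all genes tested, 0.022. The 41 estimates below 0 reach -0.76, the 5 above 0 reach 0.43, and none passed the adjusted threshold.

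In wt replicates 1, 2 and 3, the members took 2.7%, 2.34% and 2.27% of all counts, and in the libraries labelled knockdown they took 1.92%, 1.72% and 2.14%. Each wt library thus gave a larger share than each library labelled knockdown, by the least between wt replicate 3 and knockdown replicate 3. Psap alone made up between 22.1% and 29.3% of the members' counts. Without it the sum of the members was 20516, 19119 and 17473 CPM in wt and 13944, 11667 and 16637 CPM in the libraries labelled knockdown, again with no overlap.

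The libraries within a group were not alike. Among the libraries labelled knockdown, replicate 2 was the lowest for 40 of the members and replicate 3 the highest for 39, and wt replicate 1 was the highest wt library for 32. On the first component of the members, which held 80.9% of their variance, wt replicate 1 lay at -2.86 and knockdown replicate 2 at 3.14, and knockdown replicate 3 at -0.0571 was the nearest of its group to wt replicate 3 at -0.798. Without wt replicate 1 the median of the members was -0.36, with 13 lower at an unadjusted p under 0.05 in a background of 5.38%. Without knockdown replicate 2 the median was -0.35, with 9 lower in a background of 2.94%. The groups of 29 members, against 14.9% of all genes, were lower without overlap when wt replicate 1 was left out, and 26 members, against 15.1%, when knockdown replicate 2 was. With each library left out in turn, 24 of the 46 estimates stayed within 1.5 times their value. The other 22 moved further or changed sign in at least 1 case, 14 of them without wt replicate 1, among these Laptm5 (-0.55 to -0.36) and Smpd1 (-0.46 to -0.30), and 14 without knockdown replicate 2, among these Neu1 (-0.47 to -0.31) and Naglu (-0.38 to -0.24). Arsa moved from 0.24 to 0.15 without knockdown replicate 1.

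The calls of DESeq2 rested on which libraries entered. Without wt replicate 1 and knockdown replicate 3, the library labelled knockdown that lay nearest to wt, DESeq2 called 21 members, all lower. Of the genes for which it gave an adjusted p, it called 10.1% in all and 5.91% as lower. After edgeR's filter, a choice made after seeing the data, it called 23 members, all lower. Of the genes with an adjusted p, it then called 11% in all and 6.36% as lower. edgeR called 0 genes in the same 4 libraries, with 29 members lower at an unadjusted p under 0.05, where 10.4% of all genes tested were. The libraries left out here were chosen with earlier results of these data known, and leaving out knockdown replicate 3 takes away the library with the smallest difference.

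**Figure D3:**
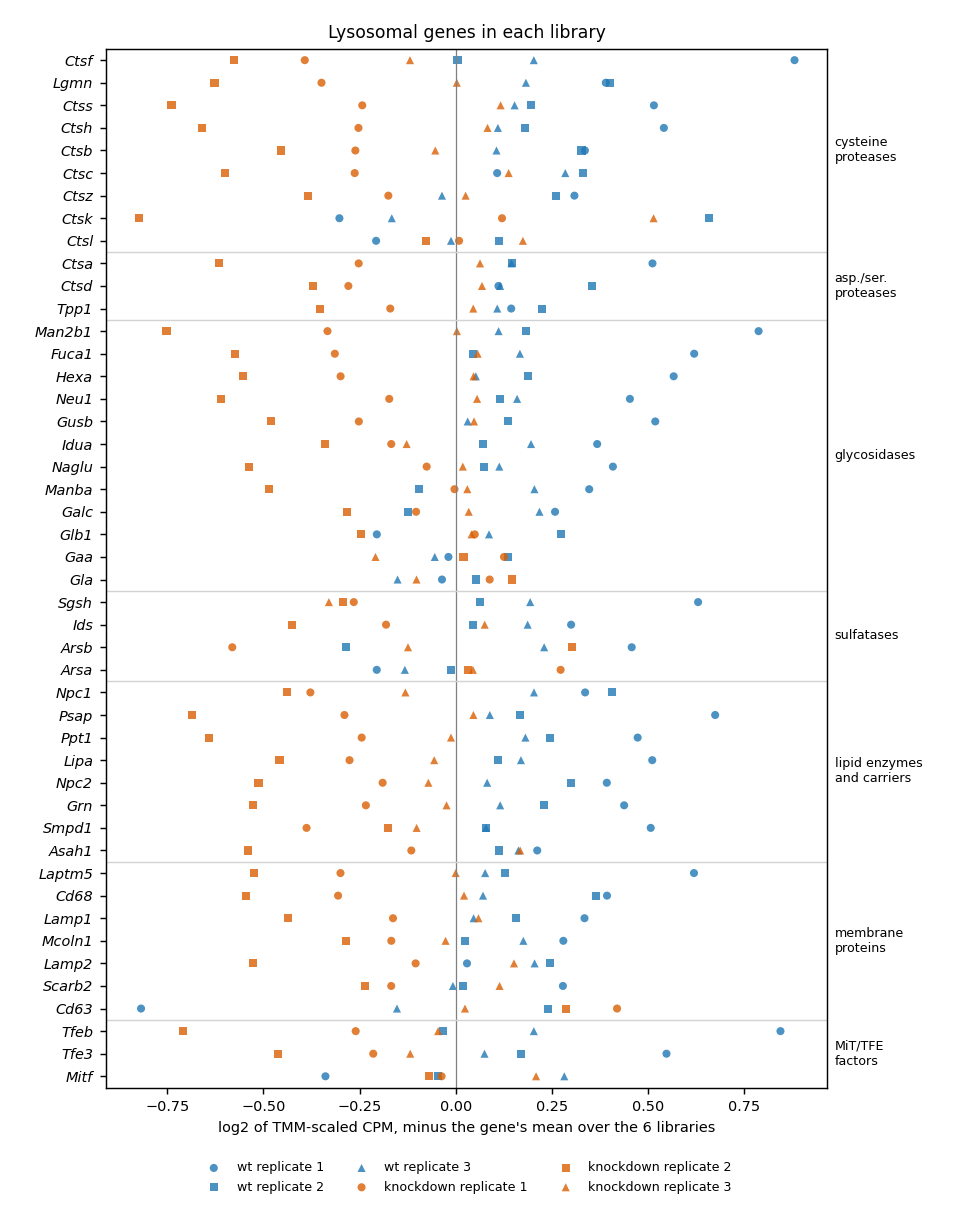
Level of each member in each of the 6 libraries, as log2 CPM minus the mean of that gene over the libraries, with wt in blue, labelled knockdown in orange, a marker shape for each replicate number and the genes grouped by role. Knockdown replicate 2 is the lowest library for 37 members and wt replicate 1 the highest for 32.

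Markers of macrophages were lower in estimate beside the members. The 15 genes of a macrophage marker list, from which lysosomal genes had been left out, all had lower estimates, with a median log2 fold change of -0.51. Of these, 0 passed edgeR's quasi-likelihood test, and 8 were lower at an unadjusted p under 0.05, where 8.31% of all genes tested were. None of the 15 was at 0 in any library. Their summed level was 14357, 16082 and 13671 CPM in wt and 10744, 8163 and 13703 CPM in the libraries labelled knockdown. Cd14 was the largest part of this sum in every library, at 5318, 7870 and 5393 CPM in wt and at 4845, 3395 and 6016 CPM in the libraries labelled knockdown. The ratio and the macrophage scaling below both rest on the sum, so Cd14 weighs most in them. The ratio of the members to this list was 2.02, 1.56 and 1.69 in wt and 1.7, 1.83 and 1.61 in the libraries labelled knockdown, so that the groups overlapped in the ratio. In bulk samples, fewer macrophages and less RNA of these genes per macrophage cannot be told apart.

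When the libraries were scaled to the macrophage list instead, the median of all genes moved to 0.51 and that of the members to 0.0085, with 23 of 46 below 0. Relative to the median of all genes, the members were at -0.48 under the main scaling and at -0.50 under the macrophage scaling, as a rescaling of libraries moves all genes alike. Under the macrophage scaling, 1 member had all libraries labelled knockdown below wt, where 0.576% of all genes did, and 4 had them above, where 28% did.

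**Figure D4:**
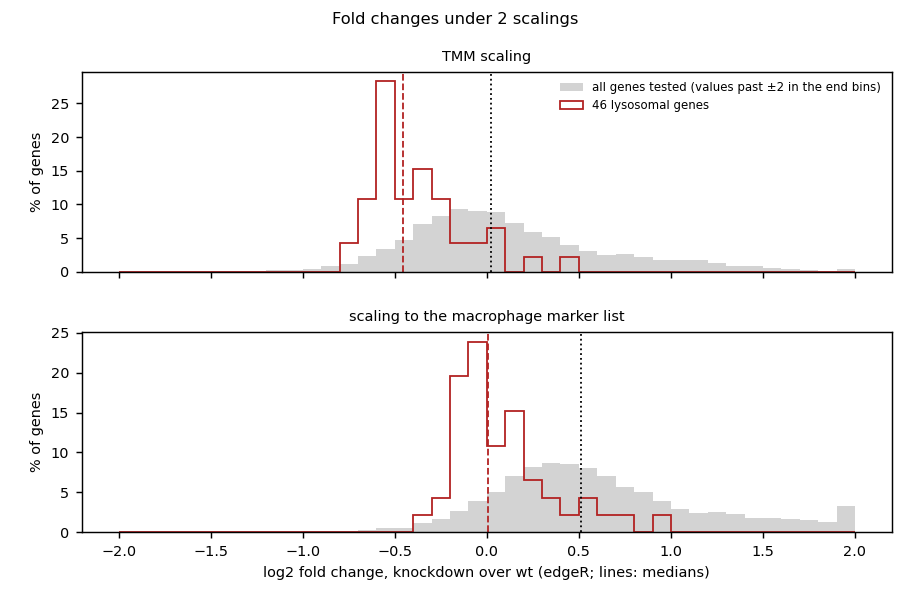
Distribution of log2 fold changes (libraries labelled knockdown over wt) under the TMM scaling (top) and under the scaling to the macrophage marker list (bottom), as the percentage of genes in each bin, for all genes tested (grey) and the 46 members (red outline), with lines at the medians. The members' median moves from -0.46 to 0.0085 and that of all genes from 0.022 to 0.51. The rescaling shifts all genes by about the same amount.

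Marker lists of other cells are given beside the members, and edgeR's quasi-likelihood test called 0 of their genes. The 5 monocyte genes summed to between 3239 and 4882 CPM in wt and between 1645 and 3035 CPM in the libraries labelled knockdown. All 5 had lower estimates, with a median log2 fold change of -0.75, and 3 were lower without overlap. The 9 neutrophil genes summed to between 1891 and 2107 CPM and between 838 and 1610 CPM, with 8 of 8 tested lower. Their median log2 fold change was -0.65, and 5 were lower without overlap, where 12.6% of all genes tested were. The 10 fibroblast genes had higher estimates, 10 of 10, with sums of 32.7, 491 and 305 CPM in wt and 715, 615 and 369 CPM in the libraries labelled knockdown. Most of each sum was Col3a1, at 19, 426 and 245 CPM in wt and at 604, 474 and 308 CPM in the libraries labelled knockdown. Col1a1, Col1a2, Fap and Postn reached at most 5.52, 2.59, 0.931 and 0.733 CPM in any library, and the estimate of Postn was 0.051. The T and NK cell list, with 9 of its 10 genes in the table, had 9 of 9 higher, with sums of 36.1 to 100 CPM in wt and 82.3 to 231 CPM in the libraries labelled knockdown. No gene of these 4 lists that was in the table was at 0 in any library. The sums of the fibroblast and of the T and NK cell list overlapped between the groups, and those of the monocyte and neutrophil lists did not. Of the carcinoma and epithelial list, 7 of 8 genes were in the table, with sums of 36.1 to 138 CPM in wt and 129 to 192 CPM in the libraries labelled knockdown. Krt8 made up most of the sum in every library but wt replicate 1. It was at 9.9, 117 and 59.1 CPM in wt and at 171, 165 and 105 CPM in the libraries labelled knockdown. Of the 4 genes of this list that were tested, 2 had lower and 2 had higher estimates, and the markers Krt19 and Cldn4 were at 0 in 5 of the 6 libraries. The sums of the dendritic cell list (219 to 378 CPM in wt and 248 to 346 CPM in the libraries labelled knockdown), the B cell list (6.26 to 36.1 and 11.8 to 58 CPM), the endothelial list (32.7 to 40.1 and 30.1 to 34 CPM) and the osteoclast list (175 to 245 and 127 to 220 CPM) overlapped as well, with Tek and Emcn of the endothelial list at 0 in 1 library each and Calcr and Oscar of the osteoclast list at 0 in 5 and 3. The part of these cells in the lower level of the members was not tested.

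**Figure D5:**
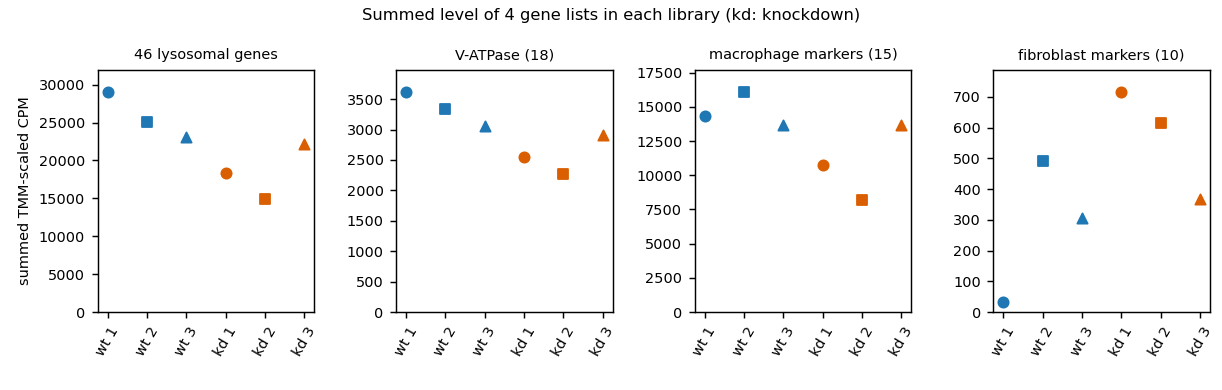
Summed CPM of the 46 members, the V-ATPase genes, the macrophage markers and the fibroblast markers in each of the 6 libraries, each panel on its own linear axis from 0, with wt in blue and labelled knockdown (kd) in orange. The members sum to between 23125 and 29000 CPM in wt and between 14970 and 22125 CPM in the libraries labelled knockdown, the V-ATPase genes to between 3063 and 3615 CPM and between 2265 and 2916 CPM. The fibroblast list is lowest in wt replicate 1 at 32.7 CPM, and most of its sum is Col3a1 in each library.

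Of the 9 cysteine proteases, the cathepsins B, C, F, H, K, L, S and Z and legumain, 8 had lower estimates, with a median log2 fold change of -0.51. They summed to between 7417 and 8353 CPM in wt and between 4827 and 7052 CPM in the libraries labelled knockdown. Lgmn encodes legumain, which cuts after asparagine and processes other cathepsins (chr12:102394084-102439813, minus strand, GRCm38). It was at 828, 834 and 717 CPM in wt and at 496, 409 and 633 CPM in the libraries labelled knockdown. Its groups did not overlap, and the log2 fold change was -0.63 (SE 0.18, adjusted p = 0.328, quasi-likelihood test of edgeR, Benjamini-Hochberg adjustment).

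Ctsb, which encodes cathepsin B, a broad protease with exo- and endopeptidase activity, was at 2762, 2745 and 2355 CPM in wt and at 1826, 1596 and 2109 CPM in the libraries labelled knockdown, a log2 fold change of -0.51 (SE 0.16). Ctss was at 1756, 1408 and 1366 CPM in wt and at 1038, 736 and 1332 CPM in the libraries labelled knockdown, a log2 fold change of -0.54 (SE 0.23). In both genes knockdown replicate 3 was the nearest to wt, and for Ctss it lay just below wt replicates 2 and 3. Ctsh, an aminopeptidase, was at 437, 340 and 324 CPM in wt and at 252, 190 and 318 CPM in the libraries labelled knockdown (log2 fold change -0.53, SE 0.21). Ctsf had few reads, with 35, 19 and 23 counts in wt and 16, 15 and 18 counts in the libraries labelled knockdown, and the lowest estimate of all members at -0.76 (SE 0.44). That rank rested on the 35 counts of wt replicate 1, without which Ctsf was at -0.46 and Npc1 was the lowest member at -0.62. These 5 genes, Lgmn included, were lower without overlap, where 12.6% of all genes tested were, and all 5 missed the adjusted threshold.

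The other cysteine proteases overlapped between the groups. Ctsl, a potent endoprotease, did not share the lower level of the other abundant cathepsins, at 743 ± 82 CPM in wt and 779 ± 70 CPM in the libraries labelled knockdown (SD, n = 3), a log2 fold change of 0.068 (SE 0.14), with a negative sign when wt replicate 1 or knockdown replicate 3 was left out. Ctsk, the collagen-cutting protease known from osteoclasts, was at 8.02 ± 3.07 and 7.55 ± 3.2 CPM. Ctsc, which activates granule serine proteases, and Ctsz, a carboxypeptidase, had log2 fold changes of -0.46 (SE 0.20) and -0.35 (SE 0.16).

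The 3 aspartic and serine proteases all had lower estimates without overlap (12.6% of all genes tested), with a median log2 fold change of -0.38. Ctsa, a carboxypeptidase that also protects beta-galactosidase and neuraminidase, was at 771, 599 and 598 CPM in wt and at 454, 353 and 565 CPM in the libraries labelled knockdown (log2 fold change -0.52, SE 0.20). Ctsd was at 1333, 1579 and 1337 CPM in wt and at 1017, 954 and 1294 CPM in the libraries labelled knockdown (log2 fold change -0.38, SE 0.17). Tpp1, a tripeptidyl peptidase whose loss causes a childhood neuronal storage disease, was at 121, 128 and 118 CPM in wt and at 97.3, 85.7 and 113 CPM in the libraries labelled knockdown (log2 fold change -0.31, SE 0.13). In each of the 3 genes, knockdown replicate 3 was the library closest to wt.

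Of the 12 glycosidases, which take sugars off glycoproteins, glycolipids and glycosaminoglycans, 11 had lower estimates, with a median log2 fold change of -0.40. In 5 of them the groups were lower without overlap, where 12.6% of all genes tested were. Man2b1, the alpha-mannosidase of N-glycan breakdown, was at 596, 392 and 373 CPM in wt and at 274, 205 and 346 CPM in the libraries labelled knockdown, with the lowest estimate of the glycosidases at -0.72 (SE 0.25). Hexa, which encodes the alpha subunit of beta-hexosaminidase, was at 350, 269 and 245 CPM in wt and at 192, 161 and 244 CPM in the libraries labelled knockdown (log2 fold change -0.53, SE 0.20). In Hexa, wt replicate 3 lay just above knockdown replicate 3, and both genes had wt replicate 1 as the highest library.

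Neu1, the lysosomal sialidase, was at 125, 98.9 and 102 CPM in wt and at 81, 59.8 and 94.9 CPM in the libraries labelled knockdown (log2 fold change -0.47, SE 0.19). The heparan and dermatan sulfate enzyme Idua was at 25.8, 21 and 22.9 CPM in wt and at 17.8, 15.8 and 18.3 CPM in the libraries labelled knockdown (log2 fold change -0.43, SE 0.15). Naglu, another enzyme of heparan sulfate breakdown, was at 27, 21.4 and 22 CPM in wt and at 19.3, 14 and 20.6 CPM in the libraries labelled knockdown (log2 fold change -0.38, SE 0.19). None of the 5 passed the adjusted threshold. The remaining 7 glycosidases overlapped between groups, from Fuca1, the alpha-fucosidase, at -0.55 and Gusb, the beta-glucuronidase, at -0.46 to Gla, the alpha-galactosidase A, at 0.089. Gaa, which breaks down glycogen, had a log2 fold change of -0.037 (SE 0.13), and its sign changed under upper quartile scaling.

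The 4 sulfatases and sulfamidases had mixed estimates, with summed levels of 131 to 149 CPM in wt and 123 to 134 CPM in the libraries labelled knockdown. Sgsh, the sulfamidase of heparan sulfate breakdown, was at 15.7, 10.6 and 11.6 CPM in wt and at 8.44, 8.28 and 8.07 CPM in the libraries labelled knockdown, a log2 fold change of -0.61 (SE 0.20). Arsa, the arylsulfatase that acts on sulfatide, was at 48.1, 55 and 50.6 CPM in wt and at 67, 56.7 and 57.2 CPM in the libraries labelled knockdown, a log2 fold change of 0.24 (SE 0.12, adjusted p = 0.353, quasi-likelihood test of edgeR, Benjamini-Hochberg adjustment). The groups of both genes were free of overlap, in opposite directions (12.6% lower and 13.3% higher among all genes tested). Ids and Arsb, sulfatases of dermatan sulfate breakdown, had log2 fold changes of -0.35 and -0.25 with overlap.

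The 8 genes of the lipid group all had lower estimates, with a median log2 fold change of -0.52. Of them, 7 were lower without overlap and 7 at an unadjusted p under 0.05, where 12.6% and 8.31% of all genes tested were. Npc1, the membrane protein that exports cholesterol from the lysosome, was at 159, 167 and 145 CPM in wt and at 96.9, 92.9 and 115 CPM in the libraries labelled knockdown. The groups did not overlap, and Npc1 had the smallest p of all members, with a log2 fold change of -0.63 (SE 0.13, adjusted p = 0.328, quasi-likelihood test of edgeR, Benjamini-Hochberg adjustment). The adjusted p of Npc1 was 0.0758 in DESeq2 without a filter and 0.0108 in DESeq2 after edgeR's filter. Its soluble partner Npc2, which hands cholesterol to it, was at 1098, 1029 and 885 CPM in wt and at 733, 586 and 796 CPM in the libraries labelled knockdown (log2 fold change -0.51, SE 0.16).

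Psap was at 8484, 5963 and 5652 CPM in wt and at 4349, 3303 and 5487 CPM in the libraries labelled knockdown, or 6700 ± 1553 against 4380 ± 1092 (SD, n = 3), a log2 fold change of -0.61 (SE 0.25). Its wt mean rested in part on wt replicate 1, and wt replicate 3 lay close above knockdown replicate 3. Grn, which encodes progranulin, the precursor of lysosomal granulins and a partner of prosaposin, was at 814, 705 and 651 CPM in wt and at 511, 417 and 591 CPM in the libraries labelled knockdown (log2 fold change -0.51, SE 0.17). Ppt1, which removes palmitate from proteins, was at 273, 233 and 223 CPM in wt and at 166, 126 and 195 CPM in the libraries labelled knockdown (log2 fold change -0.58, SE 0.18).

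Lipa, the acid lipase that frees cholesterol from its esters, was at 112, 84.8 and 88.4 CPM in wt and at 64.9, 57.2 and 75.6 CPM in the libraries labelled knockdown (log2 fold change -0.53, SE 0.16). Smpd1, the acid sphingomyelinase, was at 18.3, 13.6 and 13.6 CPM in wt and at 9.84, 11.4 and 12 CPM in the libraries labelled knockdown (log2 fold change -0.46, SE 0.19). Asah1, the acid ceramidase, was the member of this group whose libraries overlapped, at 319 ± 11.1 and 259 ± 62 CPM (log2 fold change -0.30, and -0.14 without knockdown replicate 2). The genes for the cholesterol path, Lipa, Npc2 and Npc1, thus all had estimates between -0.63 and -0.51, none of them past the threshold in edgeR. Members of other roles, among them Ctsb (-0.51), Hexa (-0.53), Cd68 (-0.54) and Lgmn (-0.63), lay in the same range.

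Of the 7 membrane proteins, 6 had lower estimates and 3 were lower without overlap (12.6% of all genes tested), with a median log2 fold change of -0.32. Cd68, the macrophage lysosomal glycoprotein, was at 669, 656 and 535 CPM in wt and at 412, 349 and 517 CPM in the libraries labelled knockdown (log2 fold change -0.54, SE 0.18). Laptm5 was at 2139, 1521 and 1468 CPM in wt and at 1131, 968 and 1392 CPM in the libraries labelled knockdown (log2 fold change -0.55, SE 0.21). Mcoln1, the calcium channel TRPML1, was at 34.5, 28.9 and 32.1 CPM in wt and at 25.3, 23.3 and 27.9 CPM in the libraries labelled knockdown (log2 fold change -0.32, SE 0.14).

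Knockdown replicate 3 was the closest to wt in all of Cd68, Laptm5 and Mcoln1. The main structural glycoproteins Lamp1 and Lamp2 overlapped between groups, at 1139 ± 116 against 893 ± 151 CPM and at 719 ± 56 against 586 ± 134 CPM (SD, n = 3), with log2 fold changes of -0.35 (SE 0.17) and -0.30, and Lamp2 was at -0.14 without knockdown replicate 2. Scarb2, the receptor that carries beta-glucocerebrosidase to the lysosome, was at -0.19. Cd63, a tetraspanin of late endosomes and exosomes, had the highest estimate of all members, with 72.5, 151 and 115 CPM in wt and 171, 156 and 130 CPM in the libraries labelled knockdown (log2 fold change 0.43, SE 0.26). Its wt replicate 1 was the lowest of the 6 libraries, and without that library the estimate was 0.19.

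Of the 3 MiT/TFE transcription factors, Tfeb and Tfe3 were lower without overlap, as 12.6% of all genes tested were, and Mitf was not. Tfe3 was at 123, 94.7 and 88.6 CPM in wt and at 72.5, 61.1 and 77.5 CPM in the libraries labelled knockdown (log2 fold change -0.54, SE 0.16). Tfeb was at 44.3, 24.1 and 28.4 CPM in wt and at 20.6, 15.1 and 23.9 CPM in the libraries labelled knockdown, with wt replicate 1 far above the others and wt replicate 2 just above knockdown replicate 3 (log2 fold change -0.70, SE 0.27). Without wt replicate 1 the estimate of Tfeb was -0.40. Mitf was at 31.2 ± 6.71 and 32.4 ± 3.52 CPM (SD, n = 3), with a log2 fold change of 0.052 (SE 0.18), and its sign also turned when wt replicate 1 or knockdown replicate 3 was left out. These are transcript levels, and the activity of these factors, which depends on their place in the cell, was not measured. The 13 members with the E-box had a median log2 fold change of -0.35, with 10 lower, and the 29 with an entry but no E-box had a median of -0.46, with 27 lower.

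Genes of the wider lysosomal pathway, taken from lists that leave out the members, were read in the same way, and edgeR's quasi-likelihood test called 0 of them. Among all genes tested, 12.6% were lower and 13.3% were higher without overlap. All 18 V-ATPase genes had lower estimates, 9 of them without overlap, with a median log2 fold change of -0.36. Tcirg1, which encodes the a3 subunit of the proton pump, was at 493, 421 and 401 CPM in wt and at 310, 312 and 337 CPM in the libraries labelled knockdown (log2 fold change -0.46, SE 0.13). Of 26 other lysosomal genes, 22 had lower estimates and 10 did so without overlap, with a median of -0.35, and 1, Aga, was higher without overlap. Hgsnat, the acetyltransferase of heparan sulfate breakdown, was at 111, 80.6 and 83.5 CPM in wt and at 65.7, 46.9 and 70 CPM in the libraries labelled knockdown (log2 fold change -0.59, SE 0.19).

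Of 13 genes for delivery to the lysosome, 11 had lower estimates and 6 did so without overlap (12.6% of all genes tested), with a median of -0.31. Sort1, which encodes the sorting receptor sortilin, was at 112, 54.1 and 68.8 CPM in wt and at 38.9, 26.9 and 52.9 CPM in the libraries labelled knockdown (log2 fold change -0.99, SE 0.33), with wt replicate 1 well above the rest. Of 16 genes that control MiT/TFE factors through mTORC1 and folliculin, 13 had lower estimates, with a median of -0.15. Of the 16, 4 were lower without overlap, where 12.6% of all genes tested were. Lamtor1, which anchors the Ragulator complex on the lysosome, was at 69.5, 52.7 and 54.4 CPM in wt and at 41.7, 37.3 and 47.7 CPM in the libraries labelled knockdown (log2 fold change -0.48, SE 0.16). The medians of these lists lay between that of the members and that of all genes tested.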

How the data were processed

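RNA from 3 libraries labelled wt and 3 labelled knockdown was analysed. The files the authors deposited hold raw counts of reads on each gene, with no normalization, beside FPKM values computed from these counts by gene length and library total. The submitters' processing notes name the build mm10. The aligner, the counting tool and its use of strand are not given in the sources used here, so genes that overlap on opposite strands (Ctsb with Fdft1, Grn with Fam171a2, Npc1 with Rmc1 and others) could share reads. The members and gene lists were chosen with earlier results of these data known.

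Counts were filtered with filterByExpr, scaled by TMM and compared over all genes with edgeR 4.0.16 (R 4.3.3, glmQLFit and glmQLFTest, two-sided), with Benjamini-Hochberg adjustment at 0.05. SE is the size of the log2 fold change over the root of its F statistic. Each library is labelled as its own sample, but since a legend of the study gives fewer mice than libraries per group, p-values measure only the spread between these libraries, which may in part be technical. Alternatives used DESeq2 1.42.0 and limma 3.58.1 on log2(FPKM + 1) and log2(FPKM + 0.1). Libraries were also left out in turn, rescaled or blocked by replicate number. The pipeline was run on simulated data as a check of its fold changes. The changes put in were larger than the estimate of any member. The check therefore does not tell whether differences of the members' size would be called. Values in all 6 libraries are given, in each role group, for the member with the smallest p, the member with the highest FPKM and each member without overlap. Of each pathway list, the gene with the smallest p is named. Ctsl, Cd63, Gaa, Mitf and other overlapping members are named to account for all 46. Gene coordinates are from GENCODE (GRCm38).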

Additional observations from a re-analysis of the deposited data

How the results depend on the processing

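Over 19 alternatives, 788 of 874 log2 fold changes of members kept their direction and their side of the threshold, 45 kept their direction and newly passed it and 41 changed sign, in 20 members. The edgeR fits called 0 genes under every alternative. DESeq2 called 36 genes without a filter and, chosen after seeing the data, 108 after edgeR's filter, with 1 member, Npc1. Without wt replicate 1 and knockdown replicate 3, edgeR called 0 genes, while DESeq2 called 1266 genes with 21 members, and after edgeR's filter 1320 genes with 23 members, all lower. With a library left out in turn, the median of the members lay between -0.57 and -0.35. Members without overlap numbered 26 to 35 lower and 1 to 3 higher, most of both without knockdown replicate 3, where 22.8% and 26.9% of all genes did so. Members lower at an unadjusted p under 0.05 ran from 6 without knockdown replicate 1 (2.74% of all genes) to 31 without knockdown replicate 3 (9.87%).

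The median of the members was 0.0085 when scaled to the macrophage list, with 1 member lower and 4 higher without overlap (0.576% and 28% of all genes), and -0.24 in limma on log2(FPKM + 1). Both limma fits had 23 members lower and 2 higher without overlap (6.88% and 18.6% of all genes). Without wt replicate 1 and knockdown replicate 3, edgeR had 36 lower and 3 higher (26.1% and 31.6%), and DESeq2 had 38 lower and 0 higher both without (22.2% and 23.2%) and after the filter (28.7% and 28.9%). When edgeR blocked on the replicate number, 0 genes were called, the median of the members was -0.45 and 17 members were lower at an unadjusted p under 0.05 (6.14% of all genes). The numbers name no shared animal, and deviations of same-numbered libraries correlated at -0.241, 0.06 and -0.337, so the block is not read as a pairing.

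Signs turned positive under the macrophage scaling for Arsb (0.27), Asah1 (0.13), Ctsd (0.084), Ctsk (0.32), Ctsz (0.11), Gaa (0.48), Galc (0.22), Glb1 (0.37), Ids (0.10), Idua (0.043), Lamp1 (0.10), Lamp2 (0.14), Manba (0.14), Mcoln1 (0.15), Naglu (0.06), Scarb2 (0.28), Smpd1 (0.029) and Tpp1 (0.15). In limma with 1 or 0.1 added, they did so for Ctsk (0.023 and 0.025), Gaa (0.10 and 0.11) and Glb1 (0.042 and 0.046), and under upper quartile factors for Gaa (0.0002). With 1 library left out, Ctsk lay between -0.41 (without knockdown replicate 3) and 0.27 (without wt replicate 2), Ctsl between -0.016 (without wt replicate 1) and 0.14, Gaa between -0.11 and 0.046 (without knockdown replicate 3), Glb1 between -0.23 and 0.0029 (without wt replicate 2) and Mitf between -0.09 (without wt replicate 1) and 0.21. Without wt replicate 1 and knockdown replicate 3, Gaa was at 0.026 in edgeR, Ctsl at -0.09 in edgeR and at -0.13 and -0.12 in DESeq2 without and with the filter, and Mitf at -0.18, -0.22 and -0.21. The cause of these moves was not tested. With 3 libraries a group and strand use unknown, small differences between groups and reads from overlapping genes were not resolved.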

Other observations

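Autophagy genes and the inhibitors of cathepsins were read from lists of the same kind. Of 17 autophagy genes, 13 had lower estimates, with a median log2 fold change of -0.17, and 2 were lower and 2 were higher without overlap, shares near the 12.6% and 13.3% of all genes tested. The 2 higher genes were Gabarapl1, which encodes a protein attached to the autophagosome membrane, and Atg9b, which encodes a lipid scramblase of early autophagosomes. Atg9b was singled out after its values were seen. Gabarapl1 was at 68.3, 66.2 and 58.9 CPM in wt and at 84.2, 91.7 and 81.6 CPM in the libraries labelled knockdown (log2 fold change 0.41, SE 0.11). Atg9b was at 3.94, 8.99 and 7.57 CPM in wt and at 16.7, 14.3 and 12.1 CPM in the libraries labelled knockdown (log2 fold change 1.07, SE 0.31). Neither passed the quasi-likelihood test of edgeR after Benjamini-Hochberg adjustment, both with an adjusted p of 0.328.

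Of 4 cystatin genes, which encode inhibitors of cysteine cathepsins, 2 had lower and 2 had higher estimates, and the groups of all 4 overlapped. Of the 2 higher, Cst6 had few reads, at 0, 0.507 and 0.134 CPM in wt and at 0.331, 0.525 and 0.191 CPM in the libraries labelled knockdown. Its log2 fold change was 0.71 (SE 1.03). Cst7, which encodes cystatin F, an inhibitor that reaches the lysosome of immune cells, was at 4.61, 4.93 and 6.68 CPM in wt and at 4.81, 10.6 and 8.32 CPM in the libraries labelled knockdown, a log2 fold change of 0.55 (SE 0.33, adjusted p = 0.385, the quasi-likelihood test of edgeR after Benjamini-Hochberg adjustment).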
